A study of Mus musculus with 18 samples.

Results

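The 3 arrays labelled Cebpa d/d and the 3 labelled control at 3 hr after naphthalene injury were compared, all from lung RNA given as terminal bronchiolar epithelial cells. They were chosen by title, 6 arrays of 18 in all. Mice of both genotypes were of a mixture of FVB/N and C57BL/6, both groups had received naphthalene, and neither their age nor the promoter behind the deletion is given in the sources used here. The other 12 arrays were of the same genotypes before injury (0 hr) and at 72 hr, 3 a group, and they entered the fit that estimates the spread. Replicates were numbered with no statement that each came from its own animal, so a p-value here speaks only for the spread among arrays, part of which may be technical.

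Cebpa encodes C/EBPα, a basic leucine zipper transcription factor that in lung epithelium takes part in the maturation of secretory and alveolar cells. Club cells, the secretory cells of the small airways, carry the cytochrome P450 Cyp2f2, which turns naphthalene into reactive products that consume glutathione and injure those cells. Glutathione loss, oxidised or misfolded proteins and amino acid shortage are each known to switch on stress programmes, among them the NRF2 and ATF4 programmes, within hours. ATF4, like C/EBPα, binds DNA through a basic leucine zipper, and ATF4 can pair with C/EBP proteins.

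The cells carried the transcripts their label calls for. Scgb1a1, a secretoglobin that club cells release in bulk, had log2 values of 12.70 to 12.74 in the control arrays and of 12.73 to 12.98 in the Cebpa d/d arrays. Cyp2f2 lay between 13.04 and 13.17 in control and between 13.11 and 13.22 in Cebpa d/d. Foxj1, which marks ciliated cells, ran from 6.95 to 7.51 over the 6 arrays. Sftpc, the surfactant protein of alveolar type 2 cells, was also high, at 12.96, 13.08 and 13.04 in control and 13.16, 13.25 and 13.15 in Cebpa d/d, so transcripts of alveolar cells were present in both groups. In RNA from many cells, fewer cells of a type and less RNA per cell cannot be told apart. In each 3 hr group 1 array came from a female by its Xist and Eif2s3y levels. Correlations across genes ran from 0.972 to 0.981 among the control arrays and from 0.979 to 0.987 among the Cebpa d/d arrays. Between a control and a Cebpa d/d array they ran from 0.973 to 0.989, no lower than within a group.

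Cebpa itself had log2 values of 10.52, 10.30 and 10.32 in the control arrays at 3 hr. In the Cebpa d/d arrays it had 8.29, 8.07 and 8.37. The genotypes did not overlap, and all 3 Cebpa d/d arrays lay below every control array. The difference was -2.14 ± 0.42 (SE from the fit of all 18 arrays, n = 3 a group), which leaves Cebpa d/d at 0.227 of the control level. With all 18 arrays its adjusted p was 0.152 by limma. The array labelled control 0 hr replicate 1 had a Cebpa value of 7.89, where the other 2 control arrays at 0 hr had 10.07 and 10.17. In its Cebpa value that array goes against its label, and it enters the spread that all groups share. Without it the same 3 hr difference had an SE of 0.20 and an adjusted p of 0.000186 by limma. That array was set aside for its own Cebpa value. The smaller SE and p of Cebpa follow from that choice and are no separate support. A limma fit of the 6 arrays at 3 hr alone, which does not use that array, gave an adjusted p of 0.00153. Which part of the gene d/d alters is not given in the labels, so the remaining signal cannot be assigned. Of the other 5 members of the CEBP family, none passed the test in either fit. Cebpg had the smallest p among them, at 10.16, 10.02 and 9.77 in control and 10.41, 10.34 and 10.24 in Cebpa d/d, a difference of 0.35 ± 0.13 with an adjusted p of 0.954.

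Leaving out that array, called the doubted array from here on, moves no value at 3 hr, only the error put on it. Adjusted p values are given with and without it for the genes that passed in either case, and with all arrays for other genes unless stated. A gene passed at a limma p under 0.05 after Benjamini-Hochberg adjustment over the 19938 genes tested. With all 18 arrays 3 genes passed, 0.015% of those tested, and all 3 were higher in Cebpa d/d: Rwdd2a, Chac1 and Slc2a3. None passed as lower. At an unadjusted p under 0.05, met by 1001 genes (5.02%), 551 genes (2.76%) were lower and 450 (2.26%) higher. That 5.02% is about the share expected at this threshold when no gene differs. When the doubted array was left out 15 genes passed, 0.0752%, of which 5 were higher and 10 lower. The 15 held the same 3 genes, with Igf1 and Aspa added on the higher side, and Cebpa, S100g, Lyz1, Lyz2, Chil1, C6, Vnn1, Gjb6, Ttpa and Palmd on the lower side. A fit of the 3 hr arrays alone called 7 genes, all lower and all among those 15, namely Cebpa, Lyz2, Chil1, Lyz1, Gjb6, Vnn1 and S100g. It called none of the 3 higher genes, whose adjusted p there was 0.107 for Rwdd2a, 0.426 for Chac1 and 0.383 for Slc2a3.

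**Figure D1:**
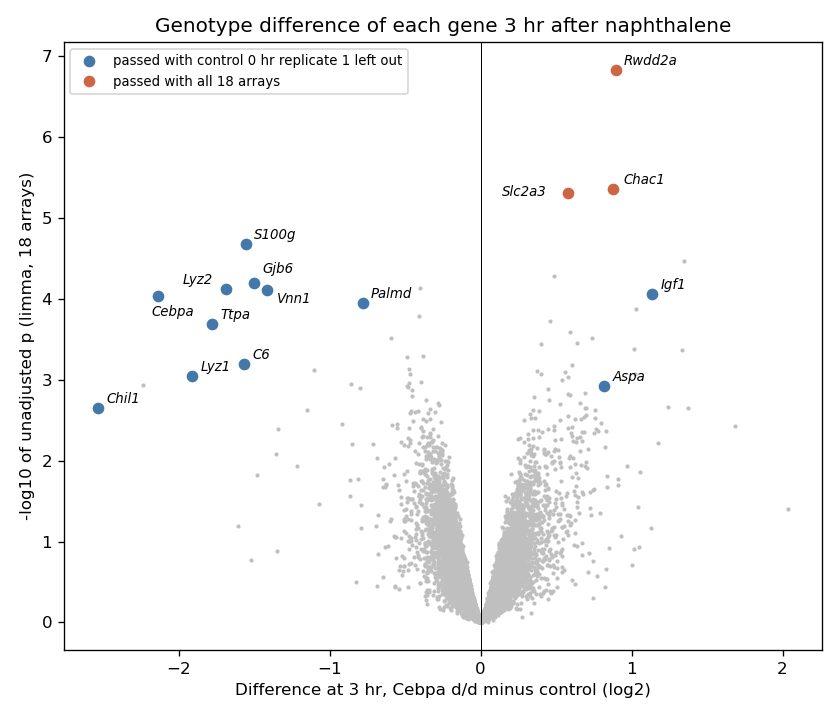
Each point is a gene; the horizontal axis is its log2 difference at 3 hr (Cebpa d/d minus control, 3 arrays a group) and the vertical axis is -log10 of the unadjusted limma p with all 18 arrays. Orange points are the 3 genes that passed with all arrays, blue points the 12 that passed when control 0 hr replicate 1 was left out. The blue lower genes, from Palmd at -0.78 to Chil1 at -2.53, have larger p-values than the orange ones.

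**Figure D2:**
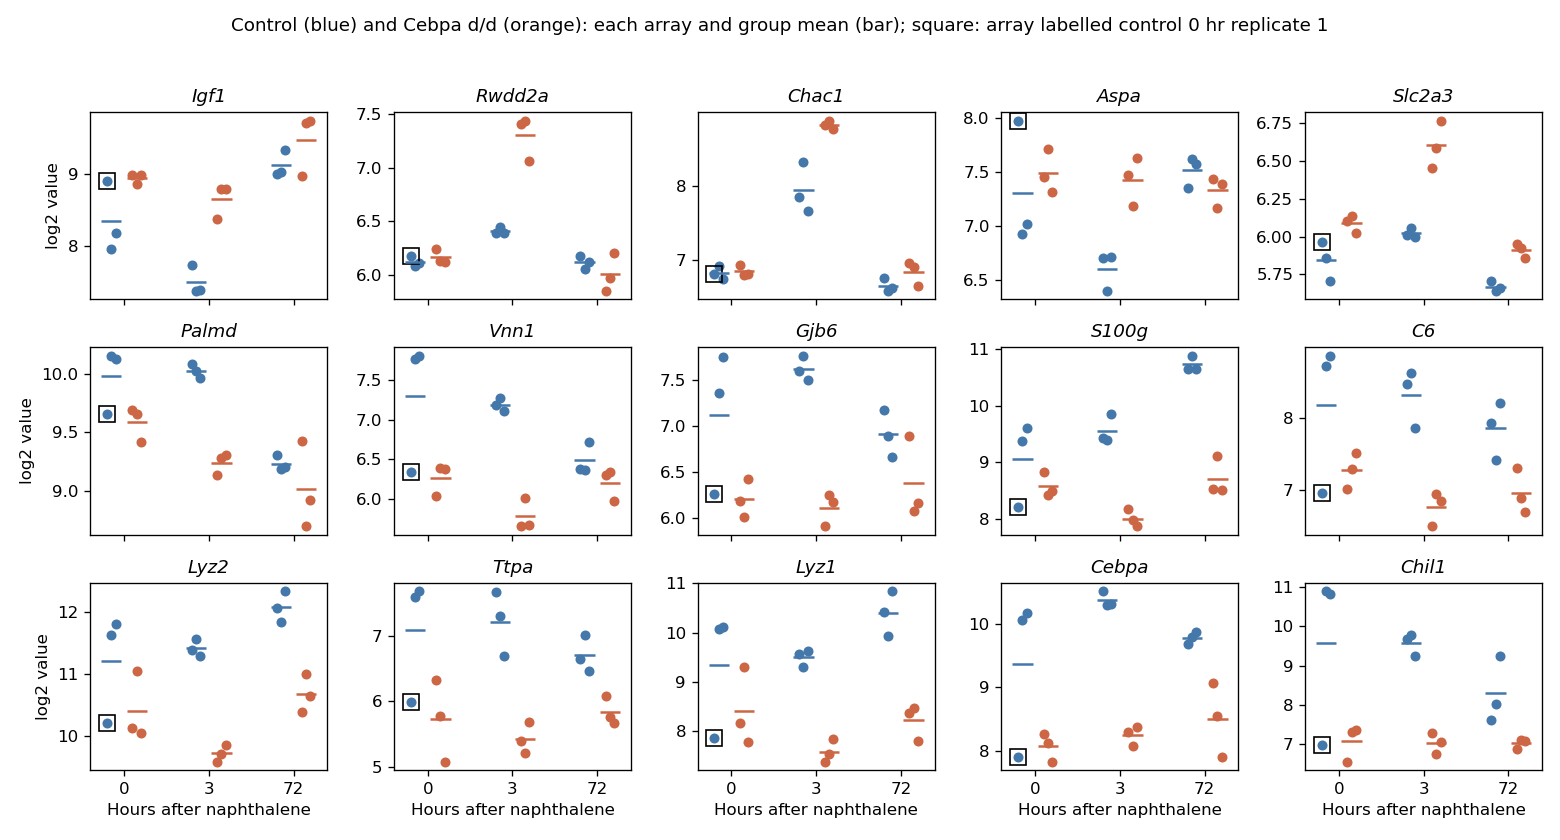
Log2 value of each array (points) and group mean (bar) for the 15 genes at 0, 3 and 72 hr, control in blue and Cebpa d/d in orange, 3 arrays a group. The square marks the array labelled control 0 hr replicate 1. For all 10 lower genes it lies nearer to the Cebpa d/d mean at 0 hr than to that of the other 2 control arrays. Those genes were added by leaving it out, so its place among them is no separate finding. At 3 hr the groups do not overlap in any panel.

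Chac1 encodes an enzyme that breaks down glutathione and is a known target of ATF4. Its log2 values at 3 hr were 7.85, 8.31 and 7.66 in control. In Cebpa d/d they were 8.82, 8.88 and 8.76. All Cebpa d/d arrays lay above all control arrays, and the difference was 0.88 ± 0.13, or 1.84-fold, with an adjusted p of 0.0326. Before injury the control arrays averaged 6.82 and the Cebpa d/d arrays 6.85. From there Chac1 rose by 1.12 ± 0.13 in control (adjusted p 0.000158) and by 1.97 ± 0.13 in Cebpa d/d (adjusted p 1.58e-07). The difference between these 2 rises, 0.86 ± 0.19, had an adjusted p of 0.192 and did not pass. By 72 hr the means were back at 6.65 and 6.84. The call at 3 hr was lost when any of 13 arrays was left out, with adjusted p up to 0.194. It held without control 0 hr replicate 1 or 3, control 3 hr replicate 2, or Cebpa d/d 72 hr replicate 1 or 3.

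The window around the Chac1 start is shown because it holds both motifs named in this paragraph. Searched on both strands, and chosen after the values of these genes had been seen, were TTGCATCA (other strand TGATGCAA), a composite of the C/EBP and ATF kind, and TGACGCAA (other strand TTGCGTCA), an ATF-CRE-like element. Of 32851 windows of 300 bases around gene starts in RefSeq, build GRCm38.p6, the first is in 0.895% and the second in 0.49%. The Chac1 window lies at chr2:119350992-119351291 on the plus strand, and capitals mark TGACGCAA at -250 and TTGCATCA at -193 from the gene start.
Chac1: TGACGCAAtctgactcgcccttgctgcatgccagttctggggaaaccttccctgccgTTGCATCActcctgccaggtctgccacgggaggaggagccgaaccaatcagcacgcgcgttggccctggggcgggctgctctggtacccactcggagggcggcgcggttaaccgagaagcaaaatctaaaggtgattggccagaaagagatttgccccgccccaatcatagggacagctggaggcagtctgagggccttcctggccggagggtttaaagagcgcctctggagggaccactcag
A match of letters is a description of the window and not evidence of binding.

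Rwdd2a, a gene named for its RWD domain, had log2 values of 6.39, 6.45 and 6.39 in control and 7.40, 7.44 and 7.07 in Cebpa d/d. Every Cebpa d/d array lay above every control array, by more than the range of either group. The difference of 0.90 ± 0.10, or 1.86-fold, had an adjusted p of 0.00297, and the call held when each of the 18 arrays was left out in turn, with adjusted p up to 0.0337. At 0 hr the genotypes differed by 0.04 ± 0.10 and at 72 hr by -0.11 ± 0.10. Within Cebpa d/d Rwdd2a rose by 1.14 ± 0.10 from 0 to 3 hr (adjusted p 8.79e-06). In control the same interval gave 0.29 ± 0.10 with an adjusted p of 0.127. The difference between these 2 rises, 0.85 ± 0.15, had an adjusted p of 0.0674 by limma and did not pass.

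Slc2a3, the glucose transporter GLUT3, had values of 6.01, 6.06 and 6.00 in control and 6.45, 6.59 and 6.77 in Cebpa d/d. The groups did not overlap, and the control arrays were close together. Its difference was 0.58 ± 0.09, with an adjusted p of 0.0326, and 0.00883 without the doubted array. A sex covariate gave an adjusted p of 0.0605, which did not pass. The call was also lost when any of 14 arrays was left out, with adjusted p up to 0.327. It held without control 0 hr replicate 1 or 3, Cebpa d/d 3 hr replicate 1 or Cebpa d/d 72 hr replicate 1. Slc2a3 differed by 0.25 at 0 hr and by 0.24 at 72 hr, neither of which passed.

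Among 32 genes of glucose uptake and glycolysis Slc2a3 alone passed, where 0.015% of all genes did with all arrays. The median difference was -0.03, beside -0.02 over all genes tested. Of the 32, 5 had non-overlapping lower arrays, among them Pdk3, a kinase that restrains pyruvate dehydrogenase, at -0.37 ± 0.14, and Aldoc, an aldolase, at -0.33 ± 0.14. Another 2 had non-overlapping higher arrays, Slc2a3 and Pfkfb4. Over all genes tested 6.05% were lower and 3.74% higher without overlap, 9.79% in all. That is about the share expected for 3 arrays against 3 when no gene differs.

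Igf1 and Aspa were the other higher genes, passing once the doubted array was left out. Igf1, a growth factor for many lung cells, had 7.74, 7.39 and 7.41 in control and 8.37, 8.79 and 8.79 in Cebpa d/d. The difference was 1.14 ± 0.22, with an adjusted p of 0.152 with all arrays and 0.0176 without that array. Aspa, which splits N-acetylaspartate, had 6.70, 6.40 and 6.71 against 7.47, 7.18 and 7.63, a difference of 0.82 ± 0.21 with adjusted p values of 0.541 and 0.023. Both groups were apart for both genes. In the doubted array Igf1 stood at 8.90 and Aspa at 7.97. The other 2 control arrays at 0 hr gave at most 8.18 and 7.02. Both genes, like the 10 lower ones, were added by leaving that array out, so its values for them are no separate finding.

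Secreted defence proteins were among the larger differences downward. Lyz1 and Lyz2 encode lysozymes, which digest bacterial walls, and are made in alveolar type 2 cells and, for Lyz2, in macrophages. Lyz2 had 11.38, 11.56 and 11.29 in control against 9.59, 9.72 and 9.86 in Cebpa d/d, a difference of -1.69 ± 0.32. Lyz1 had 9.57, 9.30 and 9.63 against 7.38, 7.54 and 7.83, a difference of -1.91 ± 0.47. In both the groups stood apart by over 1 log2 unit. With all arrays their adjusted p values were 0.152 and 0.493, and without the doubted array 0.00264 and 0.0194. The coding sequences of these genes are closely related, so a probe set of either may take up signal of the other.

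Chil1, a chitinase-like secreted protein, had 9.68, 9.78 and 9.24 in control and 7.29, 6.76 and 7.06 in Cebpa d/d. Its difference of -2.53 ± 0.70 was the largest downward among all genes tested, and the groups stood far apart. The adjusted p was 0.685 with all arrays and 0.00192 without the doubted array, where Chil1 stood at 6.99 against 10.82 and 10.88 in the other control arrays at 0 hr. C6, a component of the complement membrane attack complex, had 8.48, 8.64 and 7.87 against 6.49, 6.94 and 6.85, a difference of -1.57 ± 0.37 with adjusted p values of 0.472 and 0.00883.

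The 28 acute phase and secreted defence genes held both lysozymes. None passed with all arrays and 2 passed without the doubted array, beside 0.015% and 0.0752% of all genes. Groups did not overlap for 9 of them, 32.1% beside 9.79% of all genes, with 7 lower and 2 higher, and the median difference was -0.09. The list was written with earlier results of these data known, so that share is no independent test. Pglyrp1, which binds bacterial peptidoglycan, had 9.32, 9.03 and 10.05 in control against 8.62, 8.58 and 8.64 in Cebpa d/d, a difference of -0.86 ± 0.22 with an adjusted p of 0.541. Lcn2, which withholds iron from bacteria by binding siderophores, had 7.78, 8.65 and 8.98 against 7.13, 6.51 and 7.70, a difference of -1.36 ± 0.45 with an adjusted p of 0.831. Bpifa2, a secreted protein of the BPI fold family, lay the other way, at 5.57, 5.88 and 6.14 against 6.42, 7.11 and 7.22. Its difference of 1.05 ± 0.38 did not pass (adjusted p 0.943).

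Membrane and binding proteins formed the rest of the lower set. S100g, the calcium-binding protein calbindin-D9k, had 9.43, 9.40 and 9.85 in control and 8.17, 7.97 and 7.87 in Cebpa d/d. The difference was -1.55 ± 0.26, with an adjusted p of 0.103 with all arrays and 0.000556 without the doubted array. Gjb6, a gap junction connexin, had 7.60, 7.75 and 7.50 against 5.91, 6.25 and 6.18, a difference of -1.50 ± 0.28 with adjusted p values of 0.152 and 0.00264. Both genes were separated by more than 1 log2 unit.

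Vnn1, the pantetheinase vanin-1, had 7.18, 7.28 and 7.11 in control and 5.65, 6.01 and 5.66 in Cebpa d/d, a difference of -1.42 ± 0.27 with adjusted p values of 0.152 and 0.000186. Ttpa, which carries vitamin E, had 7.66, 7.30 and 6.68 against 5.40, 5.22 and 5.69, a difference of -1.78 ± 0.38 with adjusted p values of 0.244 and 0.0139. These are values of the brighter of its 2 probe sets. The mean of both gave a smaller difference, -1.34, with a limma adjusted p of 0.108 with all arrays. Palmd, palmdelphin, had 10.09, 10.02 and 9.97 against 9.14, 9.28 and 9.31, a difference of -0.78 ± 0.16 with adjusted p values of 0.173 and 0.0477. The 3 genes shared the layout of 3 control arrays above 3 Cebpa d/d arrays.

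The windows around the starts of S100g, Lyz1 and Lyz2 are shown because they differ in the letters of a paired C/EBP element. TTGCNNAA (other strand TTNNGCAA), also chosen after the values had been seen, is in 10.8% of the 32851 windows. Of the 15 genes, 11 had an entry in the table, and 2 of these 11, S100g and Lyz1, held it. Capitals mark it at -142 in S100g, chrX:162964550-162964849 on the minus strand, and at -209 in Lyz1, chr10:117292819-117293118 on the minus strand. The Lyz2 window, chr10:117282223-117282522 on the minus strand, lacked these letters and matched that of Lyz1 at 201 of 300 bases without gaps.
S100g: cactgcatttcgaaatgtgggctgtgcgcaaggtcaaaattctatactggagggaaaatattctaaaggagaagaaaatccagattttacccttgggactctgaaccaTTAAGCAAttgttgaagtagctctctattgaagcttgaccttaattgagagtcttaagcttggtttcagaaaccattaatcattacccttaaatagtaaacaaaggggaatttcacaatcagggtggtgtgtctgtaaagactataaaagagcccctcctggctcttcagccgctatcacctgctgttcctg
Lyz1: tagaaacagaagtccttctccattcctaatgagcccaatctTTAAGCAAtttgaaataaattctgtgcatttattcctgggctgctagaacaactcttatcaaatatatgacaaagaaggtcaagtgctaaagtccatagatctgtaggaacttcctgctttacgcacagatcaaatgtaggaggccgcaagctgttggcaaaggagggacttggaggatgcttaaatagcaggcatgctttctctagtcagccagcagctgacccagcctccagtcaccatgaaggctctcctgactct
Lyz2: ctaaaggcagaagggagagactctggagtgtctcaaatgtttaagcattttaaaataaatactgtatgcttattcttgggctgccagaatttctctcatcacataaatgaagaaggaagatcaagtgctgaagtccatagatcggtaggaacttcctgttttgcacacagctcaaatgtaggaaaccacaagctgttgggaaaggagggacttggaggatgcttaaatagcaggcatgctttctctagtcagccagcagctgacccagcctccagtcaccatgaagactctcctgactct
No match means only that these letters are not in this window.

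S100g, Lyz1 and Lyz2 belong to a list of 28 alveolar type 2 transcripts, which split in both directions. None of the 28 passed with all arrays, where 0.015% of all genes did. Without the doubted array 3 passed, all lower, beside 0.0752% of all genes. Groups did not overlap for 17, or 60.7%, beside 9.79% of all genes, with 8 higher and 9 lower in Cebpa d/d. Like the other lists, this one was written with earlier results of these data known, so its share is no independent test. The median difference was 0.13. The summed level hid this split, with list means of 8.96, 9.24 and 9.11 in control and 8.99, 9.01 and 9.07 in Cebpa d/d.

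On the lower side of that list, Acoxl, an acyl-CoA oxidase-like protein, had 6.57, 6.99 and 6.52 in control and 6.17, 6.11 and 6.02 in Cebpa d/d, a difference of -0.60 ± 0.13 (adjusted p 0.307). Chia1, the acidic chitinase, had a difference of -0.61 ± 0.21, and Fabp5, a fatty acid carrier, of -0.60 ± 0.29. Abca3, which loads surfactant lipid into lamellar bodies, gave -0.29 ± 0.10. The chemokine Cxcl15 gave -0.33 ± 0.19, with control arrays from 12.05 to 12.16 and 2 of 3 Cebpa d/d arrays at 11.69 and 11.65.

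On the higher side, Egfl6, a secreted matrix protein with EGF-like repeats, had 7.49, 8.20 and 7.48 in control and 9.03, 9.31 and 8.96 in Cebpa d/d, a difference of 1.38 ± 0.38. Etv5, an ETS transcription factor that maintains alveolar type 2 cells, had 8.23, 8.0 and 7.39 against 9.19, 9.25 and 8.92, a difference of 1.24 ± 0.34. Both had an adjusted p of 0.685 with all arrays, and 0.0586 and 0.083 without the doubted array. Scd1, which desaturates fatty acids for surfactant lipid, had 10.45, 10.96 and 10.41 against 11.42, 11.33 and 11.41, a difference of 0.78 ± 0.24. Slc34a2, a phosphate carrier, gave 0.54 ± 0.22 and Ctsh, a protease that trims surfactant proteins, 0.43 ± 0.15. Sftpa1 gave 0.32 ± 0.13, Nkx2-1 0.20 ± 0.10 and Sftpc 0.16 ± 0.08, and none of these passed.

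**Figure D3:**
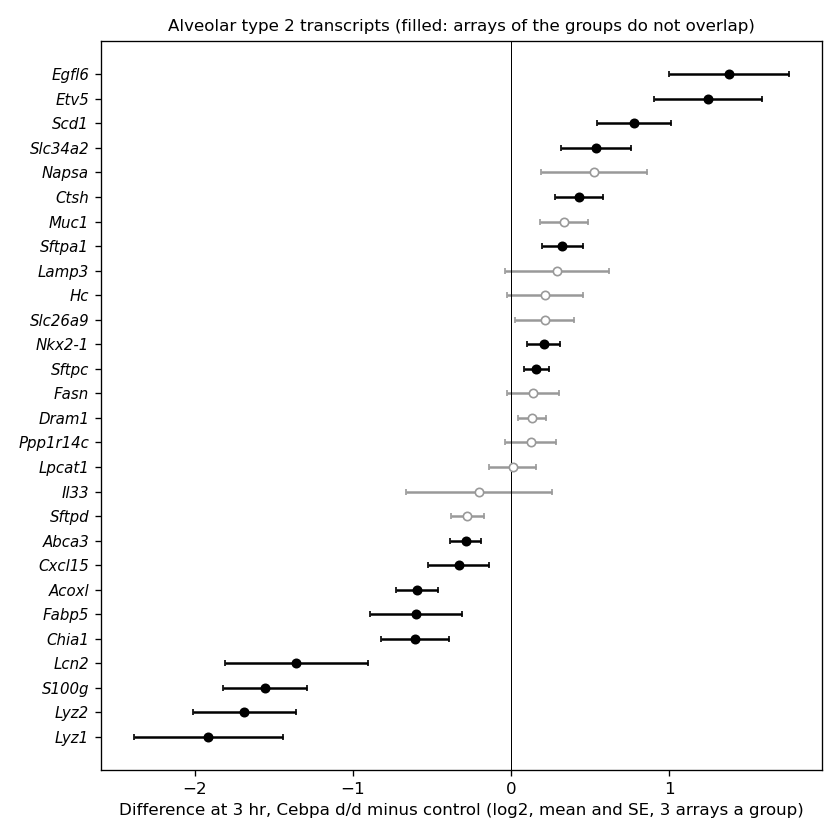
Log2 difference at 3 hr (Cebpa d/d minus control, point) with its SE (bar) for the 28 alveolar type 2 transcripts, from 3 arrays a group. Filled points are the 17 genes whose arrays do not overlap; they lie on both sides of 0, from Lyz1 at -1.91 to Egfl6 at 1.38.

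No transcript of club cells or ciliated cells passed. Of 29 club cell transcripts 1 was higher and 2 were lower without overlap (10.3%, against 9.79% of all genes), and the median difference was 0.03. Scgb1a1 gave 0.12 ± 0.08 and Cyp2f2 0.05 ± 0.12. Sult1d1, a sulfotransferase, was the member farthest from 0, at 8.52, 9.70 and 8.13 in control and 6.95, 6.88 and 8.08 in Cebpa d/d. Its groups were apart by a narrow margin, and the difference of -1.48 ± 0.54 had an adjusted p of 0.946. Of 43 ciliated cell transcripts 1 (2.33%) had non-overlapping groups, and the median was -0.0036, with list means of 8.35 to 9.03 in control and 8.58 to 8.87 in Cebpa d/d.

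Early stress genes lay above 0 more often than below it. Of 38 immediate early genes, which switch on within minutes of a stimulus without new protein synthesis, 29 were above 0 and 9 below, against 8776 of 19938 genes above 0 in all. The median was 0.16, and none passed. Without overlap 2 were higher and 1 lower, 7.89% beside 9.79% of all genes. Fos, a subunit of AP-1, had 7.06, 8.10 and 8.20 in control and 8.37, 8.35 and 8.62 in Cebpa d/d, a difference of 0.66 ± 0.22. Zfp36, which speeds the decay of cytokine mRNAs, had 8.86, 9.18 and 9.18 against 9.61, 9.50 and 9.44, a difference of 0.45 ± 0.12. Control replicate 1 was the lowest array for both genes and had the lowest list mean, 7.90, where the other 5 arrays had 8.29 to 8.57. Its part in the median was not tested. From 0 to 3 hr the list's median change was 0.57 in control and 0.68 in Cebpa d/d.

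Of 52 genes of the ATF4 and unfolded protein programmes Chac1 alone passed, where 0.015% of all genes did with all arrays. Above 0 lay 36 of the 52, and the median was 0.09. Groups did not overlap for 6, 11.5% beside 9.79% of all genes, of which 4 were higher and 2 lower. Mthfd2, a mitochondrial folate enzyme, had the widest difference, 0.91 ± 0.34, but its groups overlapped, at 8.22, 9.31 and 7.57 in control and 9.35, 8.58 and 9.88 in Cebpa d/d. Sesn2, which damps growth signalling under stress, had 7.55, 7.69 and 7.56 against 8.18, 7.83 and 7.82, a difference of 0.34 ± 0.13 (adjusted p 0.954). Atf3, a partner of the same leucine zipper family, gave 0.58 ± 0.27 with overlap. Phgdh, which opens serine synthesis, lay the other way at -0.51 ± 0.19. Over this list the median change from 0 to 3 hr was 0.38 in control and 0.47 in Cebpa d/d.

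The antioxidant lists did not lean either way. Of 31 NRF2 and thioredoxin genes none passed, and the median was -0.02, while the median change from 0 to 3 hr was 0.58 in control and 0.61 in Cebpa d/d. Osgin1, a stress-induced growth inhibitor, had 8.77, 8.71 and 8.69 in control and 9.01, 9.45 and 8.86 in Cebpa d/d, a difference of 0.38 ± 0.12 (adjusted p 0.792). Of 38 glutathione and cystine genes Chac1 alone passed, where 0.015% of all genes did with all arrays, and the median was 0.02. Mgst2, a membrane glutathione transferase, had 10.47, 10.65 and 10.79 against 9.59, 9.15 and 9.72, a difference of -1.15 ± 0.32 with an adjusted p of 0.685, and its groups did not overlap.

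**Figure D4:**
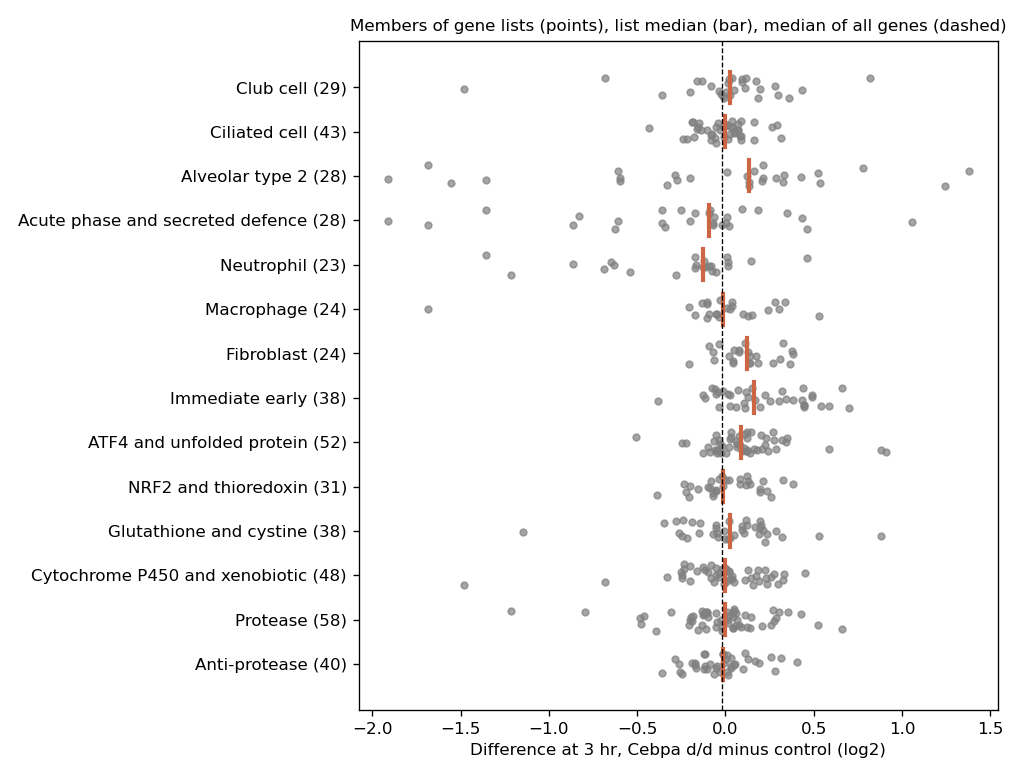
Log2 difference at 3 hr (Cebpa d/d minus control) of the members of 14 gene lists (points, number measured in brackets) with the list median (bar) and the median of all genes (dashed line, -0.02). Medians run from -0.13 for neutrophil genes to 0.16 for immediate early genes, and the alveolar type 2 and secreted defence lists have the members farthest from 0.

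No chemokine or cytokine passed, and of 52 such genes 3 were higher and 4 lower without overlap, 13.5% beside 9.79% of all genes. Cxcl5, a neutrophil attractant, had 5.95, 6.06 and 6.61 in control and 7.24, 7.14 and 8.29 in Cebpa d/d. Its difference of 1.35 ± 0.24 had an adjusted p of 0.136 with all arrays and 0.0586 without the doubted array. The monocyte attractants Ccl12 and Ccl7 gave 1.69 ± 0.50 and 0.53 ± 0.14 (adjusted p 0.756 and 0.685), each without overlap. For Ccl12 the Cebpa d/d arrays ranged from 6.97 to 8.64. The 4 lower members were Cxcl15, the interleukin 1 receptor antagonist gene Il1rn at -0.29 ± 0.11, Il11 at -0.20 ± 0.11 and Ccl20 at -0.13 ± 0.14. Over the list the median was -0.004.

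Of 23 neutrophil transcripts 18 lay below 0, as did 11162 of all 19938 genes. The median was -0.13, and 1 was higher and 4 lower without overlap, 21.7% beside 9.79% of all genes. S100a8, an abundant neutrophil protein, ranged widely within a genotype, at 9.62, 6.83 and 10.30 in control and 7.07, 9.08 and 8.54 in Cebpa d/d. List means ran from 6.12 to 6.91 in control and from 6.07 to 6.44 in Cebpa d/d, so the control arrays spread more widely than the Cebpa d/d arrays. Lcn2 and Pglyrp1 belong to this list as well as to the defence list, and the part of neutrophil RNA in their differences was not tested. Of 24 macrophage transcripts Lyz2 alone passed without the doubted array, where 0.0752% of all genes did, and the median was -0.01.

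The series is about the balance of proteases and their inhibitors. Of 58 proteases none passed at 3 hr, 6 were higher and 6 lower without overlap (20.7%, against 9.79% of all genes), and the median was -0.01. Mmp2, a gelatinase, had 9.03, 9.06 and 8.48 in control and 9.49, 9.54 and 9.52 in Cebpa d/d, a difference of 0.66 ± 0.18 (adjusted p 0.68). Ctsc, which activates serine proteases of leukocytes, had 10.71, 10.29 and 10.33 against 9.98, 9.80 and 10.10, a difference of -0.49 ± 0.18. Of 40 protease inhibitors none passed, 3 were higher and 2 lower without overlap (12.5%, beside the same 9.79%), and the median was -0.01. Timp4, which inhibits metalloproteases, gave 0.41 ± 0.19 and Serpinf1, a serpin without inhibitory action, -0.26 ± 0.08.

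Further genes were taken from the smallest p-values among those whose groups did not overlap. Igfbp3, which binds Igf1 protein, had 8.03, 8.67 and 7.79 in control and 9.34, 9.73 and 9.42 in Cebpa d/d, a difference of 1.33 ± 0.30 (adjusted p 0.356, and 0.0673 without the doubted array). Atp6v0a4, a subunit of the proton pump V-ATPase, had 5.62, 6.18 and 5.92 against 6.85, 7.07 and 6.88, a difference of 1.03 ± 0.21 (adjusted p 0.19). Kcnk9, a potassium channel, lay the other way at -0.40 ± 0.08, and the zinc receptor gene Gpr39 at -0.47 ± 0.11. Of all genes tested, 156 differed by 1.5-fold or more, and 94 of these had non-overlapping groups.

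Probe sets for a microRNA cluster on chromosome 6 also had non-overlapping groups. The probe set of Mir29b-1 had 3.10, 3.27 and 3.13 in control and 3.83, 3.44 and 3.69 in Cebpa d/d. That of Mir29a had 3.64, 3.68 and 3.76 against 4.01, 4.35 and 4.94. Their differences of 0.49 ± 0.09 and 0.74 ± 0.16 had adjusted p values of 0.152 and 0.307, and these are dim signals on an array that does not measure the mature form. The mature 3′ arms, from RefSeq with build GRCm38.p6, are shown with the seed (bases 2 to 8) in capitals because both carry the same seed.
miR-29a-3p: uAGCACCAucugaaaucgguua
miR-29b-3p: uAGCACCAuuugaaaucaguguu
They lie at chr6:31062673-31062694 and chr6:31063025-31063047, both on the minus strand.

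Differences at 3 hr were set against those at 0 and 72 hr in the same fit. Against 0 hr no gene passed (0%), and 1365 genes, 6.85%, had an unadjusted p under 0.05. Against 72 hr 2 genes passed (0.01%), Rwdd2a and Spink5, and 1208 genes, 6.06%, had an unadjusted p under 0.05. All arrays at 72 hr came from females by their Xist and Eif2s3y levels, unlike those at 3 hr. Without the doubted array none of the 15 genes differed from 0 hr, with the smallest adjusted p of 0.127 for Rwdd2a. Against 72 hr none of the 15 passed there, and Rwdd2a had 0.0512.

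At 0 hr itself all 10 lower genes lay below 0 with all 18 arrays, but none passed, while 67 of all genes tested did (0.336%), and 8 of the 10 had an unadjusted p under 0.05. Vnn1 was at -1.04 ± 0.27 (adjusted p 0.168) and Chil1 at -2.48 ± 0.70 (adjusted p 0.215). The doubted array is a 0 hr control that was set aside because of its own Cebpa level, so 0 hr values without it describe the remaining arrays and are no independent test. Without it 9 of the 10 passed as lower, where 0.767% of all genes passed, and 6 of the 10 differences grew by more than 1.5 times. Cebpa then gave -2.05 in place of -1.31, S100g -0.91 in place of -0.48 and Vnn1 -1.52 in place of -1.04. Palmd alone did not pass, at -0.55 ± 0.15 with an adjusted p of 0.132.

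At 72 hr, where the arrays are the same in both fits, all 10 lay below 0. With all 18 arrays S100g alone of the 10 passed, at -2.02 with an adjusted p of 0.00262, and 0.0702% of all genes passed. Without the doubted array 0.1% of all genes passed, and Cebpa, Lyz1 and Lyz2 passed as well, from adjusted p values of 0.609, 0.178 and 0.203 with all arrays to 0.0144, 0.00576 and 0.012. Of the 5 higher genes none passed at 0 or at 72 hr in either fit. With all arrays Chac1 differed by 0.02 ± 0.13 at 0 hr and Igf1 by 0.59 ± 0.22 with an adjusted p of 0.447.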

How the data were processed

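Total RNA given as terminal bronchiolar epithelial cells of mouse lung was hybridised to 18 Affymetrix arrays with biotin-labelled target, per the labels' protocols. The deposited table holds log2 levels of probe sets. RMA is the tool that the submitters' processing notes name; version, build and filters are not given in the sources used here. They ran from 2.53 to 13.93. The platform annotation gives a single gene symbol for 21789 of 35557 probe sets; the 1621 with several symbols and the 12147 without any were not tested. For 999 genes with more than 1 probe set the one with the highest mean was kept, which left 19938 genes, 19855 of them in the RefSeq gene table.

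The tests used limma 3.58.1 (R 4.3.3): a model of 6 group means on 18 arrays with 12 residual degrees of freedom, no replicate term, and Benjamini-Hochberg adjustment over all genes within a contrast. The contrasts were Cebpa d/d minus control at 3 hr, and that difference less the one at 0 hr and less the one at 72 hr. The script was tested on simulated data. Same-numbered arrays of the 2 groups at 3 hr did not deviate together (correlations of -0.05, -0.19 and 0.07), so numbers were not taken as pairs.

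Genes, 40 gene lists and the exclusion of the array labelled control 0 hr replicate 1 were chosen with earlier results of these data known. Named were the CEBP family, every gene that passed with or without that array, the 14 higher and 14 lower genes with the smallest p among those whose arrays did not overlap, up to 3 members of each list with the smallest p and its defining member, and the 5 genes with the smallest p in each interaction. Other list members were chosen after their values were seen. The number of arrays limits the precision.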

Additional observations from a re-analysis of the deposited data

Results flagged for a closer look

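For 2 genes the difference between genotypes at 3 hr was not that at 72 hr, by the interaction term of the limma fit. Every array at 72 hr came from a female by its Xist and Eif2s3y levels, beside 1 array in each 3 hr group. A part of sex in these differences cannot be told apart from that of time. Rwdd2a differed by 0.90 at 3 hr and by -0.11 at 72 hr, so the 2 differences lay 1.003 ± 0.15 apart on the log2 scale, with an adjusted p of 0.0315. The highest values were those of all 3 Cebpa d/d arrays at 3 hr. The adjusted p became 0.0512 when control 0 hr replicate 1 was left out.

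Spink5, a serine protease inhibitor of epithelia, differed by -0.01 at 3 hr and by -3.75 at 72 hr, which lie 3.740 ± 0.21 apart with an adjusted p of 4.99e-08. At 3 hr its control arrays had 5.40, 5.39 and 5.86 and its Cebpa d/d arrays 5.66, 5.53 and 5.43. At 72 hr the control arrays had 9.25, 9.17 and 9.53 and the Cebpa d/d arrays 5.37, 5.50 and 5.83. The 3 control arrays at 72 hr therefore stood alone.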

How the results depend on the processing

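The count of 3 genes at 3 hr was 3 with the mean of all probe sets, arrays centred on their median or quantile normalization, 4 with a trend and robust fit and 2 with a sex covariate, which lost Slc2a3 (adjusted p 0.0605). It moved to 0 when genes below the median level were left out, which removed Rwdd2a and Slc2a3 and left Chac1 at an adjusted p of 0.0564. It moved to 11 with array weights, of which 10 are among the 15 genes passing without control 0 hr replicate 1, and to 120 at an unadjusted p under 0.05 with 1.5-fold change. With only the 3 hr groups it was 7. Leaving out each array in turn gave 1 to 15; the count was 15 without control 0 hr replicate 1, 5 if Cebpa d/d 72 hr replicate 1 was left out, and 1 without control 0 hr replicate 2, control 3 hr replicate 3, any control array at 72 hr, any Cebpa d/d array at 0 hr, Cebpa d/d 3 hr replicate 3 or Cebpa d/d 72 hr replicate 2. Leaving out replicate 1 of control at 0 hr together with replicate 1 of Cebpa d/d at 72 hr, chosen after seeing the data, gave 20, which held all 15. With the replicate number as a block the count was 2, since Slc2a3 did not pass (adjusted p 0.124), and 6 for the 3 hr groups alone with that block, also chosen after seeing the data.

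The difference less that at 0 hr, 0 genes with all arrays, had 24 genes with array weights, 5 with quantile normalization and 289 at an unadjusted p with 1.5-fold change. Leaving out each array gave 0 to 44, with 44 without Cebpa d/d 0 hr replicate 3 and 14 without control 0 hr replicate 2; with the replicate block it was 0. The difference less that at 72 hr, 2 genes, had 0 without genes below the median level, 4 with array weights, 1 with the replicate block, 1 with only its groups, 220 at an unadjusted p with 1.5-fold change, 1 to 2 on leaving out each array and 1 without both of the first replicates named above. The causes were not tested where none is named. Of 430 alternative values for the 15 genes none changed sign, 348 kept their side of the threshold, 36 lost the call and 46 gained it. Leaving out an array of 0 or 72 hr leaves a 3 hr difference as it is, so no sign could change there. The 348 include genes that passed neither with all arrays nor under the alternative setting, so these counts are no measure of robustness. No scanner files were used, so signal over background was not examined.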

Other observations

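Supporting tissue showed small differences on the higher side. Of 24 fibroblast transcripts none passed, 19 lay above 0 and the median was 0.12; Col3a1, a fibrillar collagen, had 7.80, 7.88 and 7.69 in control and 8.09, 8.39 and 8.04 in Cebpa d/d, a difference of 0.38 ± 0.15 (adjusted p 0.954). Of 16 smooth muscle transcripts none passed and the median was 0.07; Hhip, which binds hedgehog proteins, gave 1.02 ± 0.25 (adjusted p 0.49). Interferon-stimulated genes, 34 in number, had 24 above 0 and a median of 0.10, and 36 mitosis genes had 25 above 0 and a median of 0.09, again with none passing. Kif11, a spindle motor, had 6.09, 6.14 and 4.90 in control against 6.40, 6.19 and 6.71, so control replicate 3 alone lay far below the rest.

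The 17 circadian clock genes had 11 above 0 and a median of 0.13, with none passing. Bhlhe41, a repressor of the circadian clock, had 7.13, 7.14 and 7.33 in control and 5.60, 6.53 and 6.89 in Cebpa d/d, a difference of -0.86 ± 0.33 (adjusted p 0.954), opposite in sign to the median of its list and with a wide spread among the Cebpa d/d arrays. Scd2, a relative of Scd1, had 7.29, 7.45 and 7.05 against 8.10, 7.97 and 7.72, a difference of 0.66 ± 0.19 (adjusted p 0.711) without overlap. Stc2, a secreted stress-response protein, gave 0.51 ± 0.17 (adjusted p 0.826).

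Heart and muscle genes had 4 of the 5 smallest p-values for the difference at 3 hr less that at 0 hr, those of Xirp2, Actn2, Myl3 and Myom1, each with an adjusted p of 0.0571. Their differences at 3 hr were -0.16, -0.06, 0.01 and 0.22, and at 0 hr 2.01, 1.89, 2.63 and 1.11. In the array labelled control 0 hr replicate 1 these 4 stood at 4.70, 6.61, 7.80 and 7.58, below every Cebpa d/d array at 0 hr. The list of 32 cardiac muscle genes had a median difference of 0.07 at 3 hr and 1.98 at 0 hr.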
